A study of Mus musculus with 2 samples.

Results

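The genes described here are Trp53, which encodes the tumour suppressor p53, and 9 genes that control it or respond to it, followed in hair follicle stem cells of the mouse. They were taken by symbol from the deposited expression table, and all 10 were found, each on a single gene ID, among 42392 gene IDs. The rule used gene names and no measured value, but the members were chosen with earlier results of these data known. The series holds 2 samples of these cells, sorted by flow cytometry from skin of female mice, 1 labelled telogen, when follicles rest, and 1 labelled anagen II-III, when they start to grow. Both samples came from K15-CrePGR; Shh+/- animals, so both carried a Cre fused to the progesterone receptor under a keratin 15 promoter and a single functional copy of Shh, and both had received RU486, the ligand of such a Cre, for 8 days. Both are titled controls. Only the anagen II-III library has a column whose name fits its label, and it is the library described here. The telogen library was not analysed here. With 1 library there is no replicate, no error and no test, and the read depth behind the values is unknown. The number of animals behind the library is not stated.

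p53 is a transcription factor that is held low in unstressed cells because Mdm2 marks it for destruction and Mdm4 masks its activation domain. DNA damage and other stress release it from both proteins, and it then switches on genes for cell cycle arrest, repair, metabolism and death. Mdm2 is itself a p53 target, which closes a negative feedback loop. In stratified epithelia, the related factor p63 maintains the basal layer and shares target genes with p53, Perp among them.

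Most of the members are known as p53 targets, so the promoter sequences that matched part of the p53 element are shown before the levels. That element consists of a pair of 10-base half-sites with a short spacer. RefSeq windows of 300 bases ran from 250 before to 50 after an annotated start on GRCm38.p6. They were found for 7 of the 10 genes, with 9 windows in all. Perp, Zmat3 and Trp53inp1 had no window and were not searched. Both strands were searched for the p53 half-site consensus RRRCWWGYYY, where R is A or G, W is A or T and Y is C or T. No mismatch was allowed. The letters matched in 5 of the 9 windows, each belonging to a different gene. The 5 matches are printed from 5′ to 3′ on the strand of the gene, with the half-site in capitals and 20 bases on either side.
Trp53 (chr11:69580264-69580313, plus strand): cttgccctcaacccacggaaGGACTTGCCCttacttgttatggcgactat
Mdm2 (chr10:117710915-117710964, minus strand): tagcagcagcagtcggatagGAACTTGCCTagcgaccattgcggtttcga
Ccng1 (chr11:40755442-40755491, minus strand): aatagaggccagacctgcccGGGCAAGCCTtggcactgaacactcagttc
Gadd45a (chr6:67037418-67037467, minus strand): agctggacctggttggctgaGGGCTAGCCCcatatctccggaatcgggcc
Sesn1 (chr10:41887246-41887295, plus strand): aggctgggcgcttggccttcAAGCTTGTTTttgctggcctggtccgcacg

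The match nearest to a start was that of Gadd45a, 40 to 31 bases upstream, followed by Trp53, 75 to 66 bases upstream. The matches of Sesn1, Ccng1 and Mdm2 began 173, 185 and 186 bases upstream. The Sesn1 stretch lay inside the annotated gene, before an internal start, and the others lay upstream of theirs. The window at the outer Sesn1 start held no match. The Trp53 match fell between Trp53 and Wrap53, the neighbouring gene on the minus strand, whose annotated start lies 98 bases from that of Trp53, and the same bases were counted in the window of Wrap53. The 2 Mdm4 windows and the Phlda3 window held no match.

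Across the genome, 8.36% of the 32851 promoter windows held a half-site. Counted by gene, this was 71.4% of the 7 members with a window, 18.3% of 71 other p53 pathway genes, 8.27% of 9376 expressed protein-coding genes and 9.55% of all 27025 genes. Most members, like most of the other pathway genes, were listed as p53 targets, and the share among the members rests on few genes and was not tested. The G and C content of the 9 member windows ran from 43% to 71.7%. Its median was 61.0%, as in the windows of expressed protein-coding genes. The part of base composition in the half-site shares was not tested. No member window held a pair of exact half-sites separated by 13 bases or fewer, a pattern found in 0.0731% of all windows. Pairs with a mismatch were not counted, so paired elements in the member windows are not excluded. In the Ccng1 stretch, the bases agacctgccc directly before the capitals differ from the consensus by a single letter. Of the other pathway genes, only Cdkn1a had exact half-sites this close, with a spacer of 12 bases. Cdkn1a encodes the cell cycle inhibitor p21. Its pair is shown for comparison with the single exact half-sites above, again with the exact half-sites in capitals. The bases tgacatgttc directly after the last capitals differ from the consensus by a single letter and so stay in lower case. They would form a pair without a spacer if a mismatch were allowed.
Cdkn1a (chr17:29090886-29090957, plus strand): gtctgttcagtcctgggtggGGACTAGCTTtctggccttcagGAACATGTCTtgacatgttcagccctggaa
A match describes letters only and not binding. Windows of this length also miss sites further away or within introns.

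**Figure D1:**
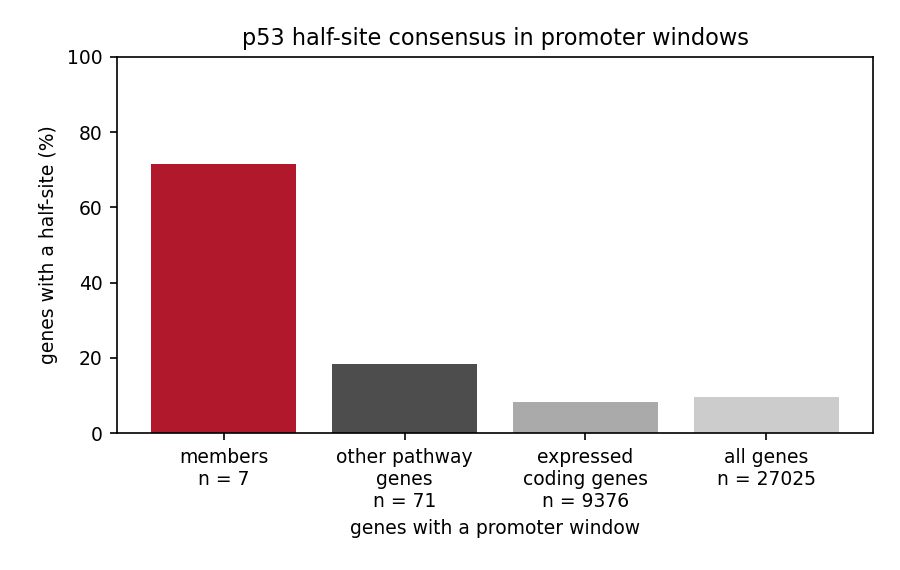
Share of genes (%, y axis) with at least 1 p53 half-site consensus in a RefSeq promoter window, for the members, the other p53 pathway genes, expressed protein-coding genes and all genes, with the number of genes under each bar. The bar of the members stands at 71.4% and rests on 7 genes, against 9.55% of all genes.

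All 10 genes were expressed in the anagen library. Levels are given in TPM, which corrects for gene length and for the library total, so different genes can be set side by side. In RNA from a pool of sorted cells, more cells with a transcript and more of it per cell cannot be told apart. Every member reached 1 TPM, a level reached by 55.8% of the 20907 protein-coding genes of the nucleus, and 9 reached 5 TPM, against 42.3% of those genes. The median of the 10 members was 24.8 TPM, and that of the 11671 protein-coding genes at 1 TPM or more was 12.5 TPM. Of the members, 9 lay above that median, and 4 lay above the upper quartile of 29.9 TPM. The members spanned a 170-fold range, or 20.1-fold without Perp.

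**Figure D2:**
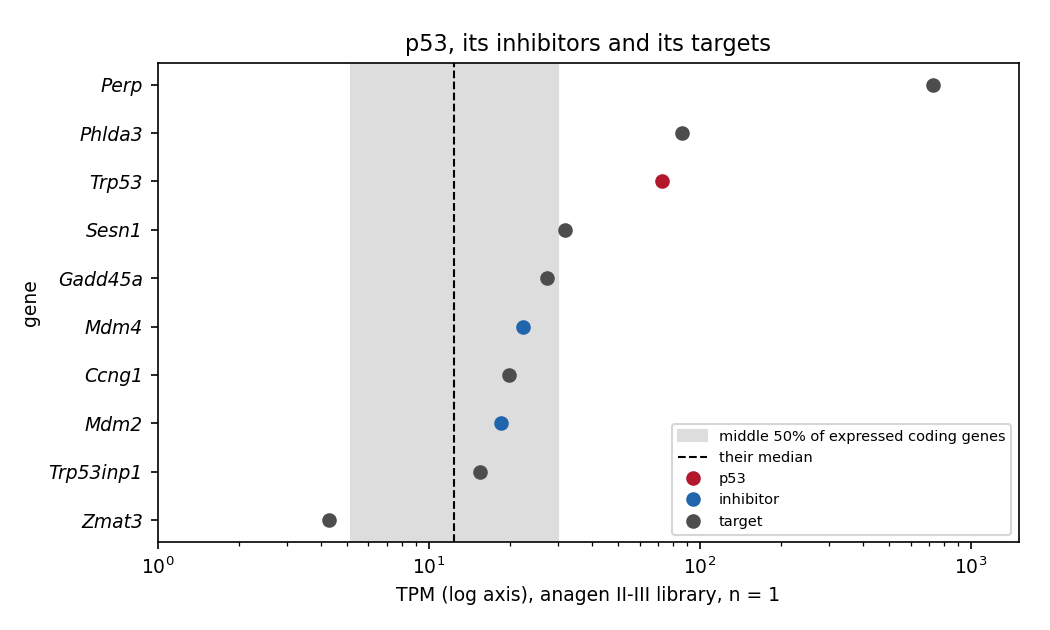
Level of each member in TPM (x axis, log scale) in the single anagen II-III library, coloured by role. The grey band covers the middle 50% of protein-coding genes at 1 TPM or more, and the dashed line is their median of 12.5 TPM. Perp stands apart at 726 TPM, 6 genes sit between 15.5 and 31.8 TPM, and Zmat3 is the only gene left of the band.

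Trp53 itself was among the more abundant messages. It stood at 72.6 TPM (ENSMUSG00000059552, GRCm38 chromosome 11, 69580348 to 69591873), above 90.7% of expressed protein-coding genes and 5.83-fold above their median. Only Perp and Phlda3 were higher among the members. The pseudogene Trp53-ps was listed at 0. p53 is controlled mostly through the stability of the protein, which RNA levels do not show.

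The inhibitors of p53 were expressed at similar levels, each well below Trp53. Mdm2, the ubiquitin ligase that targets p53 for degradation, stood at 18.5 TPM (ENSMUSG00000020184, chromosome 10, 117688875 to 117710758), above 62.1% of expressed protein-coding genes. Mdm4, its relative that binds p53 and pairs with Mdm2, stood at 22.3 TPM (ENSMUSG00000054387, chromosome 1, 132986105 to 133030587), above 67.3%. Mdm2 was thus 0.831 of Mdm4, a difference that a single library cannot set against any error. The level of Trp53 was 3.93-fold that of Mdm2 and 3.26-fold that of Mdm4. The Mdm4 locus contains the pseudogene Gm29257, 677 bases long, which the table lists at 36.0 TPM, above Mdm4 itself. The long noncoding gene Gm41953 overlaps a further 3855 bases of Mdm4 and has no value under that symbol. The sources used here do not say how reads shared by the overlapping annotations were divided, or whether counting used strand, so the Mdm4 level is uncertain. A separate pseudogene, Mdm4-ps, was listed at 0.307 TPM.

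The p53 family as a whole was led by p63. Trp63, the basal keratinocyte factor, stood at 162 TPM and was 2.23-fold above Trp53. Trp73, the remaining relative, stood at 11.4 TPM, and Trp53 was 6.36-fold above it. Trp53 therefore made up 29.5% of the summed TPM of the family and Trp63 65.9%. These are gene totals and do not separate full-length from truncated isoforms, which differ in whether they activate targets.

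Perp was by far the highest member. Perp encodes a membrane protein of the PMP22 family that was found as an apoptotic target of p53, and that p63 also switches on in epithelia, where it is part of desmosomes. It stood at 726 TPM (ENSMUSG00000019851, chromosome 10, 18845071 to 18857073), and ranked 79 from the top among protein-coding genes of the nucleus. It was 8.46-fold above Phlda3, the next member, and held 70.9% of the summed TPM of the 10 genes. Its family relative Pmp22, the myelin protein gene, stood at 47.0 TPM, 15.5-fold lower.

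Perp also exceeded every listed gene of the desmosome, the junction that rivets keratinocytes together. Of 12 desmosome genes, 11 reached 1 TPM and 8 lay above the median of expressed protein-coding genes, with a list median of 29.5 TPM. The highest were the plakophilin gene Pkp3 at 335 TPM, the plakoglobin gene Jup at 201 TPM and the desmoplakin gene Dsp at 155 TPM. Perp was 3.62-fold above Jup and 4.69-fold above Dsp. The lowest were the desmocollin gene Dsc1 at 2.77 TPM and Pkp2 at 0.482 TPM, the plakophilin best known from heart. Perp stood well below the bulge keratin Krt15, which was 4.63-fold higher.

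Phlda3 followed Perp. It encodes a small lipid-binding protein that competes with the kinase AKT for the membrane and so restrains survival signalling. It stood at 85.9 TPM (ENSMUSG00000041801, chromosome 1, 135766085 to 135769134), 1.18-fold above Trp53 and above 92.5% of expressed protein-coding genes. In its family it was the highest gene, 2.77-fold above Phlda1 at 31.0 TPM. The imprinted relative Phlda2 was at 0.995 TPM, just under the 1 TPM minimum.

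The targets linked to growth arrest and DNA damage were moderately expressed. Gadd45a, a stress sensor that binds cell cycle and repair proteins, stood at 27.3 TPM (ENSMUSG00000036390, chromosome 6, 67035096 to 67037407), above 72.7% of expressed protein-coding genes. Its relatives stood on either side of it, Gadd45g at 40.2 TPM and Gadd45b at 20.3 TPM, so the member classically tied to p53 was not the leading Gadd45 gene in this library. A long noncoding gene, E230016M11Rik, overlaps 809 bases of Gadd45a and was listed at 0.551 TPM. Ccng1, which encodes cyclin G1, a cofactor of the phosphatase that activates Mdm2, stood at 19.9 TPM (ENSMUSG00000020326, chromosome 11, 40748552 to 40755309). Ccng2, which is better known as a FoxO target, was close to it at 17.0 TPM, a ratio of 1.17.

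Of the targets linked to metabolism and autophagy, Sesn1 was the higher and Trp53inp1 the lower. Sesn1, a sestrin that restrains mTORC1 and oxidative stress, stood at 31.8 TPM (ENSMUSG00000038332, chromosome 10, 41810574 to 41908436). Sesn3, the sestrin tied to FoxO factors, stood at 31.9 TPM and was level with it. Sesn2, the sestrin that answers to both p53 and ATF4, was lowest at 5.76 TPM, 5.53-fold below Sesn1. Trp53inp1, whose nuclear and autophagosomal protein promotes p53 activity and autophagy, stood at 15.5 TPM (ENSMUSG00000028211, chromosome 4, 11156441 to 11174379), above 56.5% of expressed protein-coding genes. Its relative Trp53inp2 stood at 11.2 TPM, and the ratio between them was 1.38.

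Zmat3 was the lowest member and the only one below the median of expressed genes. It encodes a zinc finger protein that binds RNA and alters splicing downstream of p53. It stood at 4.28 TPM (ENSMUSG00000027663, chromosome 3, 32334792 to 32365665), above 20.6% of expressed protein-coding genes and 17.0-fold below Trp53. A long noncoding gene overlaps 177 bases of it, and how reads there were divided is not stated. In the group of genes that share its name, Zmat2 at 31.6 TPM and Zmat5 at 15.7 TPM were higher, and Zmat1 and Zmat4 were at 1.05 and 0.0290 TPM. The Zmat genes share a type of zinc finger, and Zmat2 and Zmat5 encode parts of the splicing machinery.

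**Figure D3:**
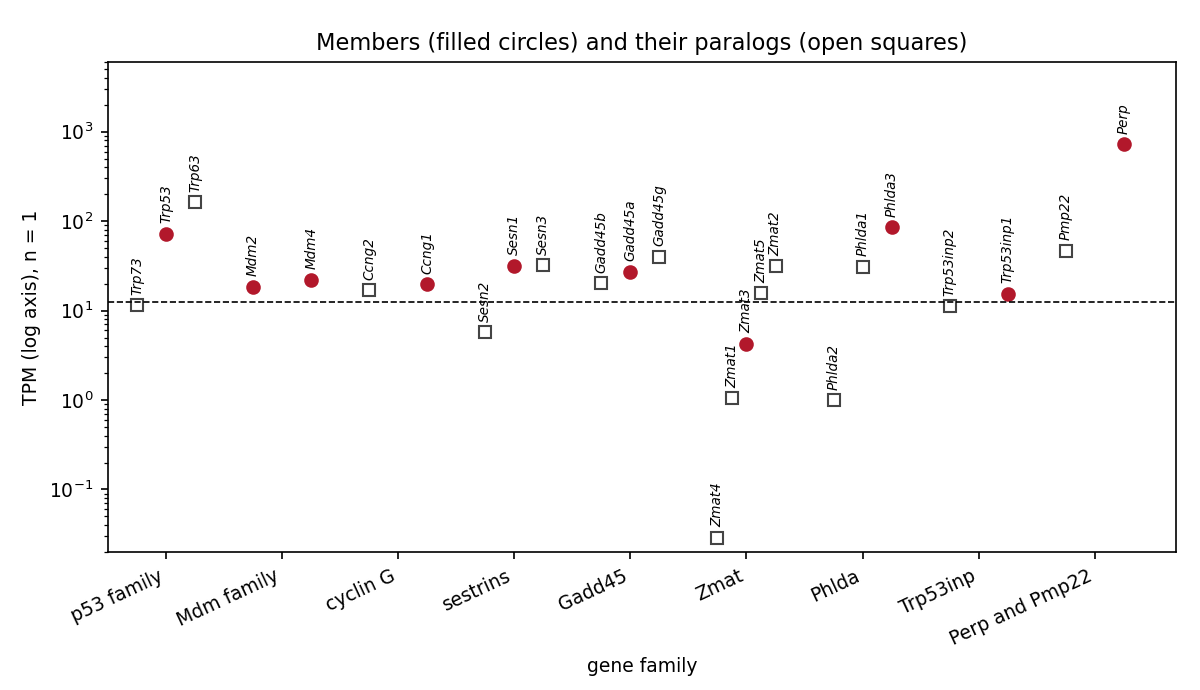
TPM (y axis, log scale) of the 10 members (filled red circles) and their paralogs (open squares) by family in the anagen II-III library, with the median of expressed protein-coding genes as a dashed line. Perp and Phlda3 lead their groups, Trp53 lies under Trp63, Zmat3 lies under Zmat2 and Zmat5, and the Ccng pair and Sesn1 and Sesn3 lie side by side.

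From top to bottom the order of levels was Perp, Phlda3, Trp53, Sesn1, Gadd45a, Mdm4, Ccng1, Mdm2, Trp53inp1 and Zmat3. Steps between neighbours were largest at the ends, 8.46-fold from Perp to Phlda3 and 3.62-fold from Trp53inp1 to Zmat3. Trp53 was 2.28-fold above Sesn1. Each of the other 6 steps was between 1.07-fold and 1.22-fold, and without replicates the order within these steps cannot be told from measurement error. With 1 library, no gene could be named as sharing the pattern of a member across samples.

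The other genes of the p53 pathway had a lower median than the members, and several of them were higher than all members but Perp. Of 83 listed genes 82 were found, with a median of 10.2 TPM, and 34 lay above the median of expressed protein-coding genes. At 1 TPM or more were 75, a level reached by 55.8% of all protein-coding genes. Those 75 had a median of 11.5 TPM, beside 12.5 TPM for protein-coding genes held to the same minimum. Among 24 partners and modifiers of p53, all were found and the median was 11.3 TPM. The ribosomal protein genes Rpl11 and Rpl5, whose free proteins block Mdm2, stood at 486 and 204 TPM, and Trim28, which encodes a corepressor that works with Mdm2, at 211 TPM. Trp53rkb, a kinase gene, stood at 1.24 TPM, and Cdkn2a, the locus of the Mdm2 inhibitor Arf, was lowest at 0.135 TPM. Ribosomal protein genes have many processed copies, so their values are uncertain.

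By median, growth arrest targets were the highest of the other target lists. Apoptosis targets and metabolism and redox targets were the lowest, at 5.23 and 5.56 TPM. The order of these lowest lists depends on whether genes under 1 TPM are included. The 9 growth arrest targets had a median of 17.0 TPM, led by Sfn, the 14-3-3 sigma gene of keratinocytes, at 475 TPM, Btg2 at 148 TPM and Gas6 at 108 TPM, with Plk3 at 3.26 TPM and Prap1 at 0.132 TPM lowest. Cdkn1a, whose paired half-sites are printed above, stood at 31.9 TPM, and Trp53 was 2.27-fold higher. Of 15 apoptosis targets 14 were found, with a median of 5.23 TPM. Siva1, Ei24 and Bax were highest at 96.7, 68.9 and 40.0 TPM, and Bid and the ectodysplasin receptor gene Eda2r were lowest at 2.34 and 0.231 TPM.

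The 8 DNA repair and nucleotide targets were all at 1 TPM or more with a median of 8.24 TPM. Xpc and Ercc5, of nucleotide excision repair, stood at 13.1 and 12.5 TPM, the bypass polymerase gene Polh at 9.28 TPM, Fancc at 8.61 TPM and Ddb2 at 7.87 TPM. Rrm2b, a subunit of ribonucleotide reductase, stood at 3.87 TPM, Mgmt at 2.44 TPM and Polk at 1.39 TPM. The 12 metabolism and redox targets had a median of 5.56 TPM, with Gpx1 at 213 TPM, Ddit4 at 109 TPM and Dcxr at 43.6 TPM highest and Gls2 at 1.23 TPM and Sco2 at 0.876 TPM lowest. The 9 secreted or surface targets had a median of 10.4 TPM, from Igfbp3 at 91.5 TPM, Thbs1 at 78.7 TPM and Tap1 at 20.1 TPM down to Gdf15 at 0.735 TPM and Abcb1a at 0.417 TPM. A list of 9 genes of mouse p53 signatures, of which Ercc5, Sesn2 and Eda2r also stand in the lists above, had a median of 12.5 TPM. Rps27l at 319 TPM, Psrc1 at 58.9 TPM and Ckap2 at 17.2 TPM were its highest. Eda2r and Cd80 were its lowest, the latter at 0.0785 TPM. Some of these genes have strong drivers other than p53 and several stand in more than 1 list.

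**Figure D4:**
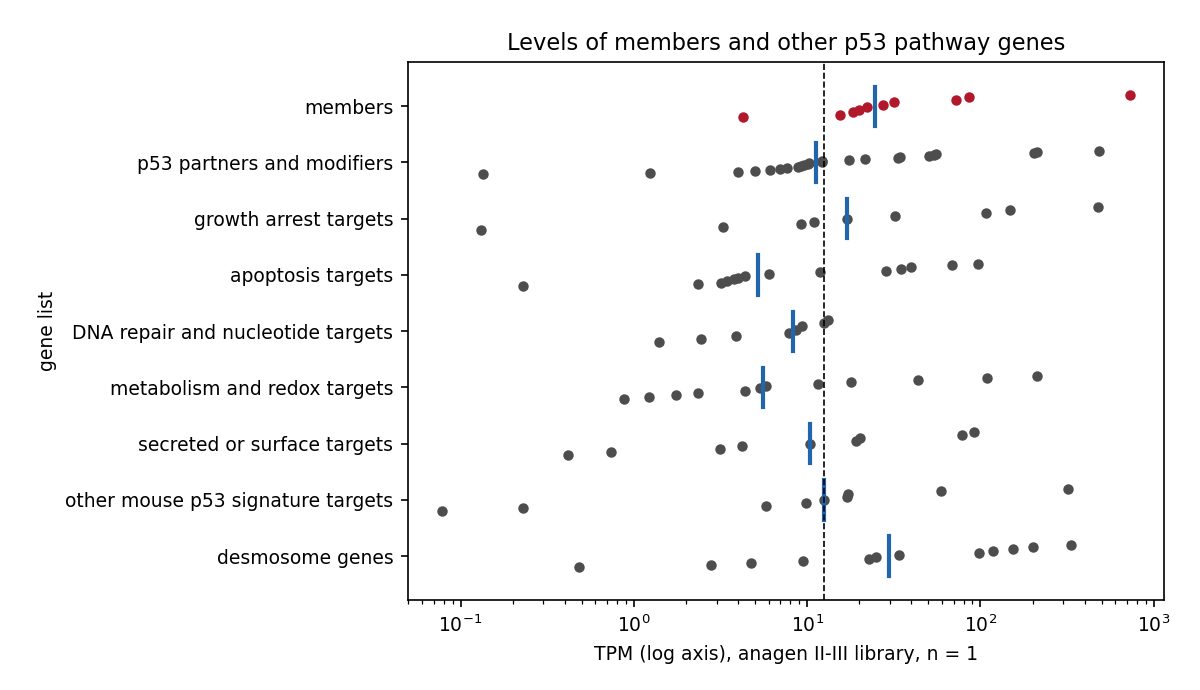
TPM (x axis, log scale) of the members (red) and of the genes of the other p53 pathway lists and the desmosome list (grey) in the anagen II-III library, 1 point per gene, with the median of each list as a blue bar and that of expressed protein-coding genes as a dashed line. The median of the members is 24.8 TPM, and the other pathway lists have medians between 5.23 and 17.0 TPM.

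The labelled cell type was checked against its markers. All 8 bulge stem cell markers lay above the median of expressed genes, with a median of 81.7 TPM, and so did all 4 basal keratinocyte markers, with a median of 931 TPM. All 7 markers of the inner root sheath and hair shaft also lay above it, between 21.5 and 51.3 TPM, and summed to 240 TPM. Leukocyte markers summed to 29.0 TPM over 6 genes, from 0.102 TPM for Cd207 to 13.2 TPM for Cd74, with the defining marker Ptprc at 0.264 TPM. Endothelial markers summed to 11.6 TPM over 5 genes, from 0.436 TPM for Kdr to 4.65 TPM for Plvap. Melanocyte markers summed to 44.8 TPM over 6 genes, from 0.602 TPM for Sox10 to 12.6 TPM for Mlana. Fibroblast markers summed to 879 TPM over 6 genes, between 1.44 TPM for Pdgfra and 287 TPM for Col3a1. The fibroblast median was 151 TPM, higher than that of the bulge markers, and 4 of the 6 lay above the median of expressed genes. Suprabasal epidermal markers summed to 1314 TPM over 7 genes, from 0.00794 TPM for Flg to 769 TPM for Krtdap, and 4 of the 7 lay above the median of expressed genes. The 7 markers of cell isolation stress had a median of 233 TPM and the 6 cycling cell markers one of 67.1 TPM. The part of these other cells and states in the levels of the p53 genes was not tested.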

How the data were processed

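RNA-seq of sorted hair follicle stem cells was used from the 1 library that could be matched to its label. The authors deposited TPM per gene ID, per the file headers, and the submitters' processing notes name RSEM 1.2.30, Bowtie2 2.2.9 and the mm10 build (GRCm38). Which gene annotation was used is not given in the sources used here. As TPM keeps no depth, no interval or detection floor was set, and with 1 library no test was made. The anagen II-III library was matched to the column named 1 through the number in its title, the only such title, and the other 11 columns of values were not used. Each gene ID was used once, and the highest ID was taken where a symbol stood on several. Gene types, positions and promoters came from RefSeq tables of GRCm38.p6, which typed 32825 IDs, and a table of gene names filled missing symbols. Setd8 was found under its present symbol Kmt5a, and 1 listed pathway gene was not matched. The members and all lists were chosen with earlier results of these data known. Every member and paralog is named, with the 3 highest and 2 lowest genes of the pathway and desmosome lists, or all genes where such a list has up to 8. Marker lists are given by sums, medians and ranges. The values of Cdkn1a, Krt15, the pseudogenes and the overlapping genes were added after their values were seen. The planned comparison of proteins was not made. The rank calculation was tested on simulated data. Calculations used Python 3.11.15, pandas 2.3.3 and numpy 2.4.6, and plots matplotlib 3.10.9.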

Additional observations from a re-analysis of the deposited data

How the results depend on the processing

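With 1 library no error, depth or replicate check exists, and differences between settings could not be set against any spread. Rescaling without mitochondrially encoded genes and the 50 highest others multiplied levels by 1.80, and the median became 44.5 TPM for the members and 18.4 TPM for the other pathway genes. The geometric mean with a pseudocount of 1 was 34.9 and 12.8 TPM, and with 0.1 it was 34.2 and 11.1 TPM. The other pathway genes at 1 TPM or more had a median of 11.5 TPM. The ratio of Mdm2 to Mdm4 was 0.838 with 1 TPM added to both. The median share of expressed protein-coding genes below a member was 70.0%, and became 71.7% after rescaling, 83.2% with no filter, 60.4% among genes at 5 TPM or more and 71.0% among genes of any type. Zmat3, Mdm2 and Trp53inp1 moved across the middle of the ranking under at least 1 of these backgrounds, Zmat3 upwards to 55.7% with no filter, Mdm2 and Trp53inp1 downwards to 49.99% and 42.6% among genes at 5 TPM or more. Summing the IDs of a symbol changed no median, and 9 members reached 5 TPM. No paired analysis was possible because only 1 library was analysed, and no replicate could be left out.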
